A study of Mus musculus with 6 samples.

Results

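Eicosanoids are signalling lipids made from arachidonic acid. The genes described here make them, break them down or receive them: Hpgd, Hpgds, Ptgs1, Ptgs2, Ptger2, Ptger4, Ptgir, Alox5, Alox5ap and Ltb4r1. These 10 genes were chosen by their symbols and with differences between WT and Runx3-/- arrays already known, so that their own differences are given as a description and without a p-value. Of the 10 genes, 9 had a probe set that the platform annotation pairs with that gene alone, out of 19938 genes with such a probe set, and each of the 9 had 1 probe set. Ptgs1 was not analysed here.

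The arrays (Affymetrix Mouse Gene 1.0 ST, which read most of a transcript) measured total RNA of CD8+ T cells (CD8-TC) taken fresh from the spleen and not activated. The donors were male mice of ICR, an outbred stock, at an age of 6 weeks. There were 3 arrays of WT mice (Runx3 +/+) and 3 of Runx3-/- mice, which the paper calls biological repeats. The paper does not say whether a repeat was 1 mouse or a pool. According to the labels, WT cells were taken by anti-CD8 magnetic beads, and Runx3-/- cells by such beads and a FACS sort against CD11c+ CD8+ dendritic cells. A further label mentions sorting for every sample. Where only the Runx3-/- cells were sorted, sorting and genotype cannot be told apart. Runx3 is absent from all cells of a Runx3-/- mouse and not from T cells alone.

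Phospholipases release arachidonic acid from membranes. The cyclooxygenases Ptgs1 and Ptgs2 turn it into the precursor of all prostanoids, from which synthases such as Hpgds, the haematopoietic prostaglandin D synthase, make the single prostaglandins, and the dehydrogenase Hpgd inactivates prostaglandins, PGE2 above all. Alox5 (5-lipoxygenase) with its helper protein Alox5ap starts the leukotriene branch, which ends at receptors such as Ltb4r1, the high-affinity receptor of leukotriene B4. PGE2 reaches T cells through Ptger2 and Ptger4 (the EP2 and EP4 receptors), which raise cAMP and are known to dampen activation through the T cell receptor. Ptgir, the prostacyclin receptor, also couples to cAMP.

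Because the mice differ in a DNA-binding factor of the RUNX family, the 250 bases before the transcription start are shown for the 4 genes whose signal differed most steadily between the genotypes or that form a receptor pair. They were taken from RefSeq (assembly GRCm38.p6) in the direction of the gene, 5′ to 3′, for Hpgd (chr8:56294302-56294551, plus strand), Hpgds (chr6:65144731-65144980, minus strand), Ptger4 (chr15:5244188-5244437, minus strand) and Ptger2 (chr14:44987861-44988110, plus strand). Capitals mark a RUNX motif on either strand, that is TGTGGT or its form with a final C, which is TGTGGC, and the forms with C in the middle, which read TGCGGT or, with the final C as well, TGCGGC.
Hpgd: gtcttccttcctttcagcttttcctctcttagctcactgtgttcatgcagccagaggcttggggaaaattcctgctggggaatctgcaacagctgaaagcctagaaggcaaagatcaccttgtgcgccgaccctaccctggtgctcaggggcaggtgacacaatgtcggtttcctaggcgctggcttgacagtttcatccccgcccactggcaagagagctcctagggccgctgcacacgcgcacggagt
Hpgds: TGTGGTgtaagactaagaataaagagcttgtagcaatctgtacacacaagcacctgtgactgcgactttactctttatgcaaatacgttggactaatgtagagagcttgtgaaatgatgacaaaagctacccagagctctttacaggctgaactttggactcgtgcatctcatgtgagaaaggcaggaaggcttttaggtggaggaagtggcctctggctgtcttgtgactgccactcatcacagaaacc
Ptger4: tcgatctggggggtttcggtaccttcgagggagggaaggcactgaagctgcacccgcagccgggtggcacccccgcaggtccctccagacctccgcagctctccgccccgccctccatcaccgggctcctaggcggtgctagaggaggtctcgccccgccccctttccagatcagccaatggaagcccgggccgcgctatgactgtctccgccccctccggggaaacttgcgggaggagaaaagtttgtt
Ptger2: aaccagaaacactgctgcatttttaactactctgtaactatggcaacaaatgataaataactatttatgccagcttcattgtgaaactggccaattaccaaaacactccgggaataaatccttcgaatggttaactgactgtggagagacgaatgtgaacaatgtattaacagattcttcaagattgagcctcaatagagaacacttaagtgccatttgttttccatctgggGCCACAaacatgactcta
The Hpgds window opens with TGTGGT, 250 bases before the start. The Ptger2 window holds TGTGGC on the opposite strand, read here as GCCACA, 18 bases before the start. The windows of Hpgd and Ptger4 hold none of the 4 motifs. Over all 9 genes with an entry, 5 windows held at least 1 of the motifs (Hpgds, Ptger2, Ptgs2, Alox5 and Ltb4r1), where 38% of 32851 windows of the same length in the table did. The motifs were therefore found on both sides of the comparison described next, in genes with lower, higher and overlapping signal in Runx3-/- cells. A match is a run of letters and not a measured site of binding. The paper places most Runx3-bound regions of resting CD8-TC far from transcription starts, outside windows of this length. A window without a motif therefore does not tell whether Runx3 binds elsewhere near that gene.

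All levels are RMA signals, which are log2 values, and all differences are Runx3-/- minus WT on that log2 scale. A gene entered the fit over all genes (limma) when its signal reached its array's median, between 3.45 and 3.53, in 1 array or more, and it passed the test at an adjusted p under 0.05. Of 9924 genes tested, 1154 passed (11.6%), with 6.00% lower and 5.63% higher in Runx3-/- cells. The median difference over the genes tested was 0.0062. Arrays of the same genotype correlated across genes at 0.985 or above and those of different genotypes at 0.971 or below. For Runx3 itself, WT signals were 7.09, 7.30 and 6.99 and Runx3-/- signals 7.06, 7.17 and 7.64, which overlap. No source used here says which part of the transcript that probe set reads relative to the deletion, so that it does not check the labels. Of the 6 genes in the T cell list, Cd3d, Cd3e, Cd3g, Cd8a and Cd8b1 lay between 9.22 and 11.5 in every array. None of these 5 passed the test. The remaining gene of that list, Cd4, passed and was higher, at 4.23 ± 0.17 in WT and 6.79 ± 0.12 in Runx3-/- cells (SD, n = 3).

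Among the eicosanoid genes, the largest difference was that of Hpgd, and it was a fall. Of the 5 genes that were tested, the breakdown enzyme Hpgd, the synthase Hpgds and the leukotriene helper Alox5ap were lower in Runx3-/- cells, and the PGE2 receptors Ptger4 and Ptger2 were higher. These 5 of the 10 genes lay past the threshold, 3 lower and 2 higher, beside 11.6% of all genes tested. Since the genes were chosen from this contrast, nothing is read from that count. The remaining 4 measured genes, Ptgs2, Ptgir, Alox5 and Ltb4r1, stayed below the array median in all 6 arrays and were not tested.

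**Figure D1:**
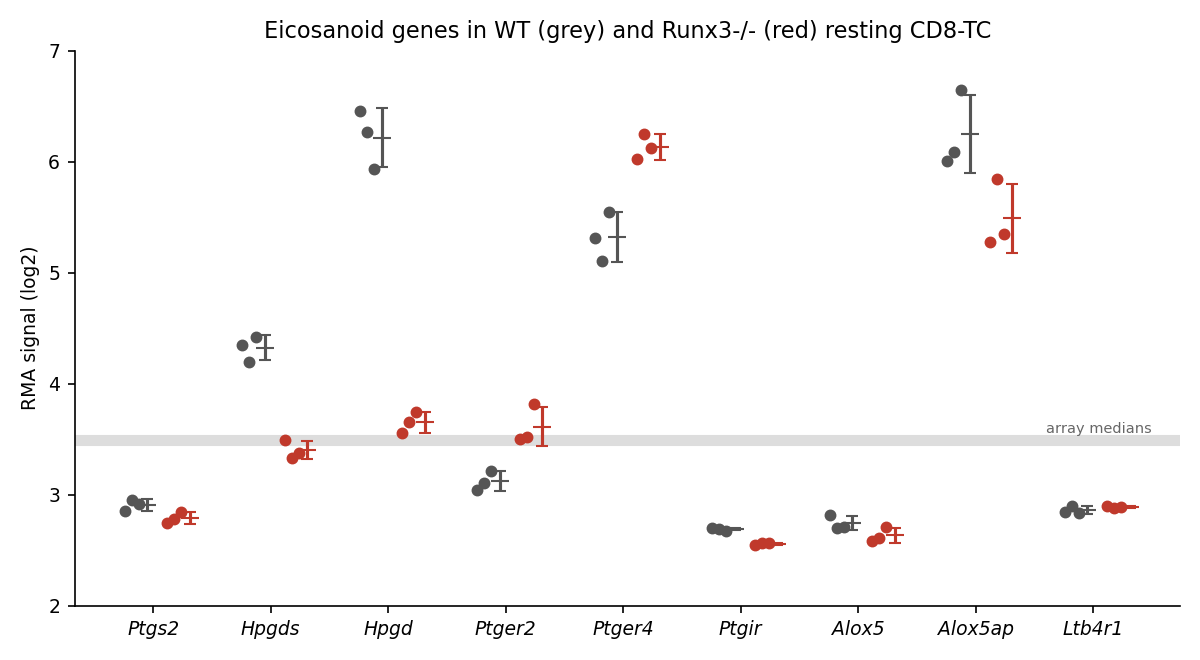
RMA signal (log2, vertical axis) of the 9 measured eicosanoid genes (horizontal axis), with 1 point per array (WT in grey, Runx3-/- in red), the group mean with its SD (n = 3 arrays) beside the points and the range of the array medians as a grey band. Hpgd and Hpgds drop to about the band in Runx3-/- cells, Ptger2 crosses it upwards, and 4 genes lie below it in both genotypes.

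Hpgd (probe set 10571840), the enzyme that ends prostaglandin signalling, had signals of 6.46, 6.27 and 5.93 in WT and of 3.56, 3.65 and 3.75 in Runx3-/- arrays. The lowest WT array lay 2.18 above the highest Runx3-/- array. The mean level was 6.22 ± 0.27 in WT and 3.65 ± 0.09 in Runx3-/- cells (SD, n = 3), a difference of -2.57 ± 0.14 (SE) or a 5.92-fold lower signal. It ranked 24 among the falls of the 9924 genes tested. The Runx3-/- signals lay just above the array medians, where an array reads close to background, and a fold against such a level may be understated. In RNA from a whole preparation, fewer cells of a type and less RNA per cell cannot be told apart.

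Markers of cells other than T cells fell in the same arrays. The marker lists, too, were chosen with earlier results of these data known. All 12 macrophage markers fell, with a median difference of -2.63, and their mean level lay between 6.81 and 6.98 in WT and between 4.15 and 4.81 in Runx3-/- arrays. Hmox1, Lyz2 and Vcam1 changed by -3.71, -2.81 and -2.36 (limma adjusted p = 0.000103, 0.00102 and 0.000822). All 7 measured B cell markers fell too, and their mean level lay between 6.77 and 7.37 in WT and between 4.37 and 4.62 in Runx3-/- arrays, with changes of -3.20 in Cd79a, -2.87 in Ms4a1 and -2.29 in Cd79b. The 3 tested erythroid markers, Alas2, Slc4a1 and Car1, fell, with changes of -3.39, -2.86 and -2.86 and a mean level over the 5 measured markers of 4.66 to 5.41 and 2.93 to 3.16. An array signal has no 0, and of the 12 macrophage markers none was below the filter. Siglec1 of the macrophage list, Fcer2a of the B cell list and Slc4a1 and Car1 reached the array median in WT arrays alone, so that they entered the test through the group in which they were higher. The part of these cells in the difference of Hpgd was not tested.

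The genes whose pattern over the 6 arrays was most like that of Hpgd were sought by the Euclidean distance of the log2 values, each gene centred on its mean. The nearest were C1qb (0.182), Itgae (0.383), Adgre1 (0.477), Sirpa (0.484) and Mrc1 (0.542). Only genes with a difference near that of Hpgd can be close by this distance, and these 5 differed by -2.33 to -2.91. Their nearness therefore adds no support beyond the fall itself. C1qb, Adgre1 and Mrc1 are in the macrophage list. Itgae, which encodes the integrin chain CD103, is carried by CD8-TC as well as by dendritic cells. The paper reports lower Itgae expression in CD8-TC on loss of Runx3. Itgae RNA is therefore not a measure of dendritic cells in these arrays.

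Hpgds (probe set 10545101), the haematopoietic prostaglandin D synthase, had WT signals of 4.35, 4.20 and 4.42 and Runx3-/- signals of 3.49, 3.33 and 3.38. Every WT array lay above every Runx3-/- array, by 0.71 or more. The mean level was 4.32 ± 0.11 in WT and 3.40 ± 0.08 in Runx3-/- cells (SD, n = 3), and the difference was -0.92 ± 0.10 (SE), a 1.90-fold lower signal. Only 1 Runx3-/- array reached its median, so that the lower level may lie close to background. Hpgds is known from mast cells, megakaryocytes and T helper 2 cells, among others. Of the 9 mast cell and basophil markers, 7 (Cpa3, Mcpt8, Fcer1a, Hdc, Gata2, Mcpt4 and Tpsb2) were below the filter, Kit fell by 0.85 (adjusted p = 0.00959) and Ms4a2, at 3.39 ± 0.12 and 3.43 ± 0.04, did not pass. The mean of that list lay between 3.12 and 3.18 in WT and between 3.02 and 3.07 in Runx3-/- arrays. The paper names Kit among Runx3-regulated genes that were lower without Runx3 in IL-2-activated CD8-TC or natural killer cells. Kit RNA alone is therefore not a measure of mast cells here. Of the 5 measured platelet and megakaryocyte markers, Ppbp, which reached the median in WT arrays alone, fell by 1.65 (adjusted p = 0.000502) and Pf4, Itga2b, Gp9 and Gp5 were below the filter, with list means of 3.33 to 3.53 and 3.01 to 3.09. The macrophage and B cell lists, described with Hpgd, had median differences of -2.63 and -2.45 in the same arrays. The part of any of these cells in the difference of Hpgds was not tested.

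Ptgs2, the inducible cyclooxygenase (probe set 10350516), measured 2.85, 2.95 and 2.92 in the 3 WT mice and 2.74, 2.78 and 2.85 in the 3 Runx3-/- mice, all below the array medians. The groups came within 0.0020 of each other, and the difference was -0.12 ± 0.06 (SE). With no detection call, these data do not settle whether resting CD8-TC of either genotype carry Ptgs2 RNA.

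The receptors of PGE2 went the other way. Ptger4 (probe set 10427461, the EP4 receptor) read 5.31, 5.10 and 5.55 in WT arrays, against 6.02, 6.25 and 6.12 in Runx3-/- arrays. The groups did not overlap, with a gap of 0.47, and all 6 arrays lay well above their medians. Its mean was 5.32 ± 0.22 in WT and 6.13 ± 0.12 in Runx3-/- cells (SD, n = 3), a difference of 0.81 ± 0.13 (SE) or a 1.75-fold higher signal. It ranked 139 among the rises of all genes tested.

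Ptger2 (probe set 10414271, the EP2 receptor) had WT signals of 3.04, 3.11 and 3.22 and Runx3-/- signals of 3.50, 3.52 and 3.82. No WT array and 2 Runx3-/- arrays reached the array median, so that the gene was tested only through the group in which it was higher. The means were 3.12 ± 0.09 and 3.61 ± 0.18 (SD, n = 3), and the difference was 0.49 ± 0.11 (SE), 1.41-fold. It fell short of the threshold in 5 of 13 other settings, among them without WT replicate 1, WT replicate 2, Runx3-/- replicate 2 or Runx3-/- replicate 3. Its fold is also under the 1.5-fold that the study's methods ask for, a rule not among those 13.

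Ptgir, the prostacyclin receptor (probe set 10550394), measured 2.70, 2.70 and 2.68 in the 3 WT mice and 2.55, 2.57 and 2.56 in the 3 Runx3-/- mice. The groups did not overlap, but every value was far under the array medians, and the difference of -0.13 ± 0.05 (SE) lies in the dimmest part of the arrays. Among all genes tested, 33.6% had groups that did not overlap. Ptgir was not tested, so that this is not the share for genes as dim as Ptgir.

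Regulatory T cell markers rose in the arrays in which the PGE2 receptors were higher. Of 6 markers 5 passed the test, with Tnfrsf18 higher by 0.91, Ikzf2 by 0.85 and Il2ra by 2.23 (adjusted p = 0.000639, 0.0184 and 8.14e-05), and the mean level of the list lay between 4.11 and 4.14 in WT and between 5.48 and 5.83 in Runx3-/- arrays. Il2ra, Foxp3 and Ctla4 reached the array median in Runx3-/- arrays alone and were tested only through them. Cd4, whose product marks helper T cells, was higher by 2.57 ± 0.12. The paper reports Runx3 bound at the Cd4 silencer in CD8-TC and higher Cd4 expression on loss of Runx3. Cd4 RNA is therefore not a measure of helper T cells in these arrays. The part of regulatory or helper T cells in the levels of Ptger4 and Ptger2 was not tested. The 5 tested genes nearest to Ptger4 over the 6 arrays were Tmem86b (0.192), Xaf1 (0.195), Oas1b (0.199), Spo11 (0.213) and Ms4a6c (0.255). They differed by 0.71 to 0.87, and only genes with a difference near that of Ptger4 can be close by this distance. None of them is in a marker list.

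In the leukotriene branch, Alox5ap (probe set 10527638), which presents arachidonic acid to the lipoxygenase, read 6.01, 6.08 and 6.65 in WT arrays, against 5.27, 5.85 and 5.35 in Runx3-/- arrays. The groups were only 0.16 apart. WT replicate 3 and Runx3-/- replicate 2 were the highest of their groups. The means were 6.25 ± 0.35 and 5.49 ± 0.31 (SD, n = 3), with a difference of -0.76 ± 0.20 (SE), a 1.69-fold lower signal. It was past the threshold in 5 of 14 other settings. It missed it, among others, without WT replicate 1, 2 or 3 or Runx3-/- replicate 1 or 3, and the difference lay between -0.93 and -0.56 when single arrays were left out.

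Within each genotype, the mean level of the 9 dendritic cell markers was highest in the same array as Alox5ap, at 6.78, 6.74 and 7.63 in WT and 6.15, 6.86 and 6.18 in Runx3-/- arrays. Across the genotypes the order differed, since the dendritic cell mean of Runx3-/- replicate 2 lay above those of WT replicates 1 and 2 and its Alox5ap signal below theirs. The mean of the mast cell and basophil list was also highest in WT replicate 3 (3.18) and Runx3-/- replicate 2 (3.07). The shared highest array is thus not particular to the dendritic cell list, and each group has only 3 arrays. None of the 8 tested markers passed, with a median difference of -0.73. Cd74, H2-Aa and H2-Eb1, all of the class II pathway that B cells also use, differed by -0.88, -0.60 and -1.03 (adjusted p = 0.094, 0.148 and 0.103). Xcr1, Clec9a, Flt3 and Itgax reached the array median in all 6 arrays. They differed by -0.60, -0.86, -0.42 and -0.91 (limma adjusted p = 0.201, 0.159, 0.408 and 0.207). Batf3 reached the median in 2 WT arrays alone, and Zbtb46 was below the filter. Neutrophil markers were low, with list means of 3.24 to 3.60 and 2.88 to 3.11. Of the 3 that were tested, Ngp and S100a8 fell, at -1.63 and -0.58, and S100a9, at -0.63, did not pass (adjusted p = 0.0187, 0.0324 and 0.112). Ngp and S100a8 reached the median in WT arrays alone, and Elane, Mpo, Ltf, Camp and Csf3r were below the filter. No natural killer cell marker of 3 tested passed, and Gzmb, Klre1 and Klri2 differed by 0.35, 0.09 and 0.05. The part of these cells in the level of Alox5ap was not tested.

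**Figure D2:**
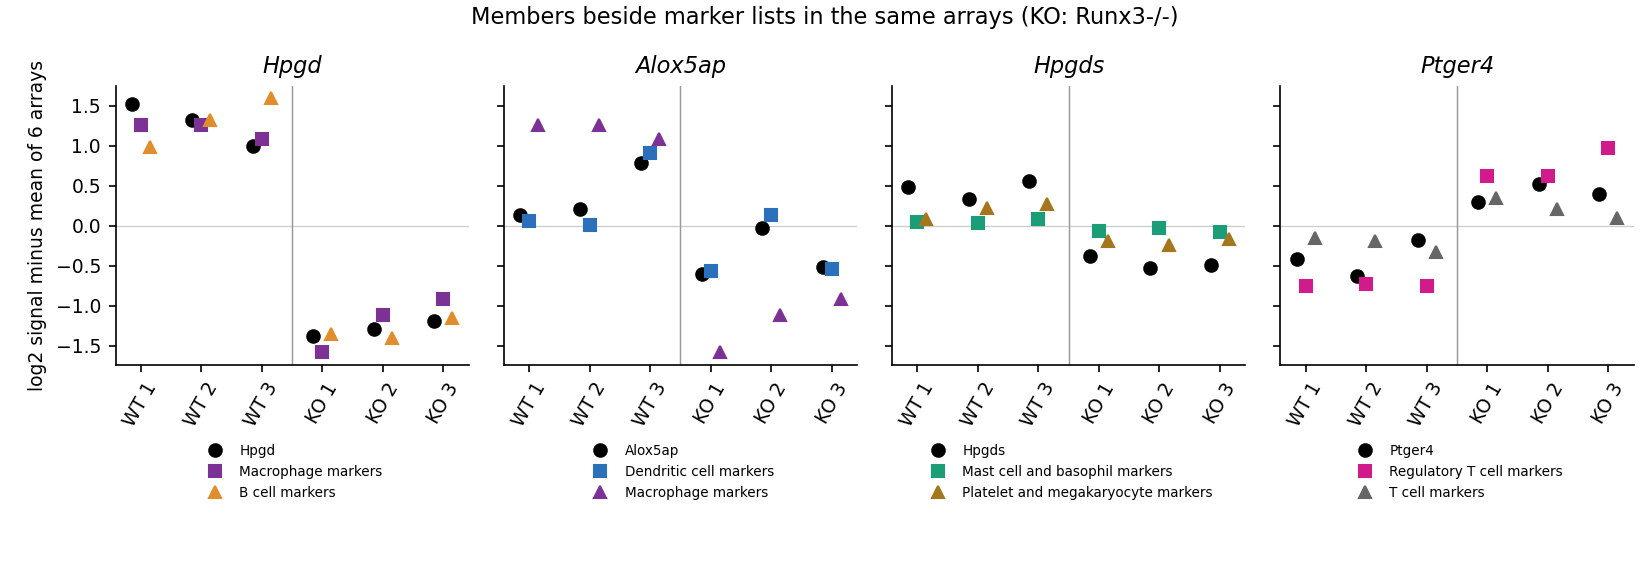
Signal minus the mean of the 6 arrays (log2, vertical axis) in each array (horizontal axis, WT to the left of the line and Runx3-/- to the right, named KO) for Hpgd, Alox5ap, Hpgds and Ptger4 (black circles) and for the mean of the measured genes of a pair of marker lists (coloured). Hpgd drops by about as much as the macrophage and B cell markers. Alox5ap and the dendritic cell markers share the highest array within each genotype (WT replicate 3 and Runx3-/- replicate 2), as do the mast cell markers. The mast cell and platelet means rest mostly on genes below the filter and move little. The T cell list, which holds Cd4, moves less than the regulatory T cell list.

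Alox5, the lipoxygenase itself (probe set 10547153), had WT signals of 2.81, 2.70 and 2.71 and Runx3-/- signals of 2.58, 2.61 and 2.71, so that the groups overlapped, with a difference of -0.11 ± 0.07 (SE). Ltb4r1 (probe set 10415392), the receptor at the end of this branch, measured 2.85, 2.90 and 2.83 in the 3 WT mice and 2.89, 2.88 and 2.89 in the 3 Runx3-/- mice, which also overlapped. Its difference was 0.03 ± 0.06. Both probe sets stayed below the array medians, whereas Alox5ap lay above them in all 6.

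**Figure D3:**
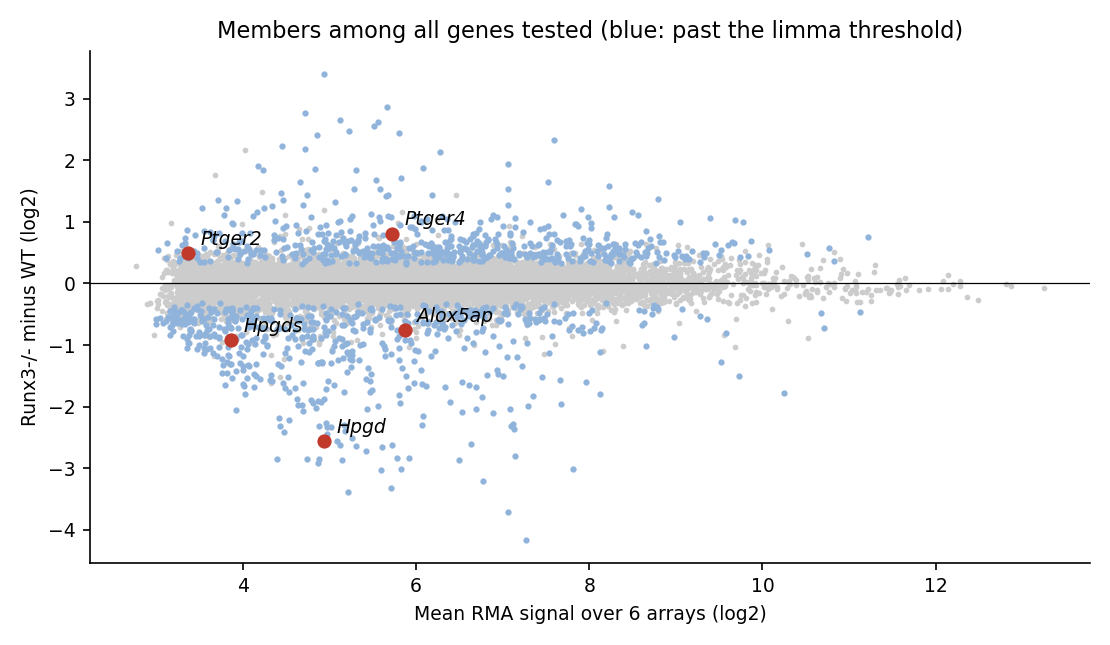
Difference between Runx3-/- and WT cells (log2, vertical axis) against the mean RMA signal over the 6 arrays (log2, horizontal axis) for the 9924 genes tested, with genes past the limma threshold in blue, others in grey and the 5 tested eicosanoid genes in red. Hpgd, at -2.57, lies near the lower edge of the cloud at its signal, and Ptger2 lies at the dim end.

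The other genes of the pathway were taken from lists by role. Of 83 measured, 50 were tested, and 4 rose, 8 fell and 38 did not pass (24% passed, beside 11.6% of all genes tested). These lists were chosen with earlier results of these data known. The share and the adjusted p-values of their genes are therefore a description, and nothing is read from the share. Of the 12 that passed, Pla2g4a, Tbxas1 and Prxl2b reached the array median in WT arrays alone, so that these 3 were tested only through the group in which they were higher. The median difference of the 50 pathway genes tested was 0.03, beside 0.0062 over all genes tested. For these genes, too, a change in the number of cells of a type and a change in RNA per cell cannot be told apart. The part of cells other than CD8-TC in their differences was not tested.

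Genes that release arachidonate and build it back into membranes included 3 that fell and 1 that rose among 10 tested. Pla2g15, the lysosomal phospholipase A2, was 5.79 ± 0.15 in WT and 4.64 ± 0.13 in Runx3-/- cells (SD, n = 3) and fell by 1.15 ± 0.11 (SE, adjusted p = 0.000639). Pla2g2d, a secreted phospholipase A2, fell by 1.55 ± 0.26 (adjusted p = 0.00737), with WT replicate 3 at 5.65 and the other WT arrays at 4.66 and 4.62. Pla2g4a, the cytosolic phospholipase A2 that supplies the cyclooxygenases, fell by 0.46 ± 0.09 (adjusted p = 0.0146), with 2 WT arrays and no Runx3-/- array at the array median. Its call was lost without WT replicate 1 or Runx3-/- replicate 2. Faah, which cleaves arachidonoyl amides, rose by 0.84 ± 0.13 (adjusted p = 0.0051), from 6.82 ± 0.20 to 7.66 ± 0.14. Lpcat3, which puts arachidonate into phospholipids, and Daglb, a diacylglycerol lipase, did not pass, at differences of 0.36 ± 0.11 and -0.28 ± 0.11 (adjusted p = 0.0745 and 0.13).

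Of the other prostanoid synthases 2 of 5 tested fell and none rose. Prxl2b, a reductase that makes prostaglandin F, fell by 0.75 ± 0.12, from 3.96 ± 0.20 to 3.21 ± 0.06 (adjusted p = 0.00533), with all 3 WT arrays and no Runx3-/- array at the median. Tbxas1, the thromboxane synthase, fell by 0.53 ± 0.09 (adjusted p = 0.0104), with 1 WT array and no Runx3-/- array there. The PGE2 synthases Ptges3 and Ptges2 differed by -0.23 ± 0.11 and -0.14 ± 0.10 and did not pass (adjusted p = 0.203 and 0.415), and Ptges, Ptgds and Ptgis were below the filter. None of 4 tested genes of prostanoid transport and reduction passed, with the reductase Zadh2 at -0.33 ± 0.11 and the exporter Abcc4 at 0.27 ± 0.12 (adjusted p = 0.0975 and 0.198). Of the other prostanoid receptors, only Tbxa2r, the thromboxane receptor, and Ptger1 were tested, and they differed by 0.05 ± 0.14 and 0.14 ± 0.12 (adjusted p = 0.862 and 0.503). Ptger3, Ptgdr, Ptgdr2 and Ptgfr stayed below the array medians.

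Farther along the leukotriene branch, 2 of 7 tested genes rose and none fell. Lta4h, the hydrolase that forms leukotriene B4, rose by 0.48 ± 0.11 (adjusted p = 0.0325), and Mgst2, a microsomal transferase able to form leukotriene C4, rose by 1.12 ± 0.28 (adjusted p = 0.0396). The WT arrays of Mgst2 were spread from 5.63 to 6.92, below all Runx3-/- arrays at 7.29 to 7.64. Both calls were lost in 7 of 15 other settings, among them for Lta4h without WT replicate 2 or 3 or Runx3-/- replicate 2 or 3 and for Mgst2 without WT replicate 2 or any single Runx3-/- array. Cysltr2, a receptor of cysteinyl leukotrienes, and Ggt5 did not pass, at 0.41 ± 0.14 and 0.19 ± 0.12 (adjusted p = 0.0969 and 0.34), and 12 genes of this list, among them Alox12, Alox15, Ltc4s and Cysltr1, were below the filter. Of the epoxyeicosanoid genes Ephx1 alone was tested and differed by 0.22 ± 0.30 (adjusted p = 0.679).

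Downstream of the EP2 and EP4 receptors, 3 of 17 tested genes of cAMP signalling passed (17.6%, beside 11.6% of all genes tested). No response to the receptors is read from that count. Adcy6, an adenylyl cyclase, was 4.69 ± 0.35 in WT and 6.38 ± 0.36 in Runx3-/- cells and rose by 1.68 ± 0.22, 3.21-fold (adjusted p = 0.00227). Prkar2a, a regulatory subunit of protein kinase A, fell by 1.01 ± 0.16 (adjusted p = 0.00671), and Pde7a, a phosphodiesterase specific for cAMP, fell by 0.68 ± 0.11 (adjusted p = 0.00736). The 14 that did not pass included Prkar2b at -0.40 ± 0.12 and Pde4d at 0.31 ± 0.13 (adjusted p = 0.0656 and 0.173). Among nuclear receptors that sense lipids, Rxra fell by 0.54 ± 0.12 (adjusted p = 0.0231), a call that was lost without WT replicate 1 or 3 or Runx3-/- replicate 2 or 3. Pparg and Rxrb differed by -0.40 ± 0.12 and 0.13 ± 0.12 and did not pass (adjusted p = 0.0742 and 0.525).

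**Figure D4:**
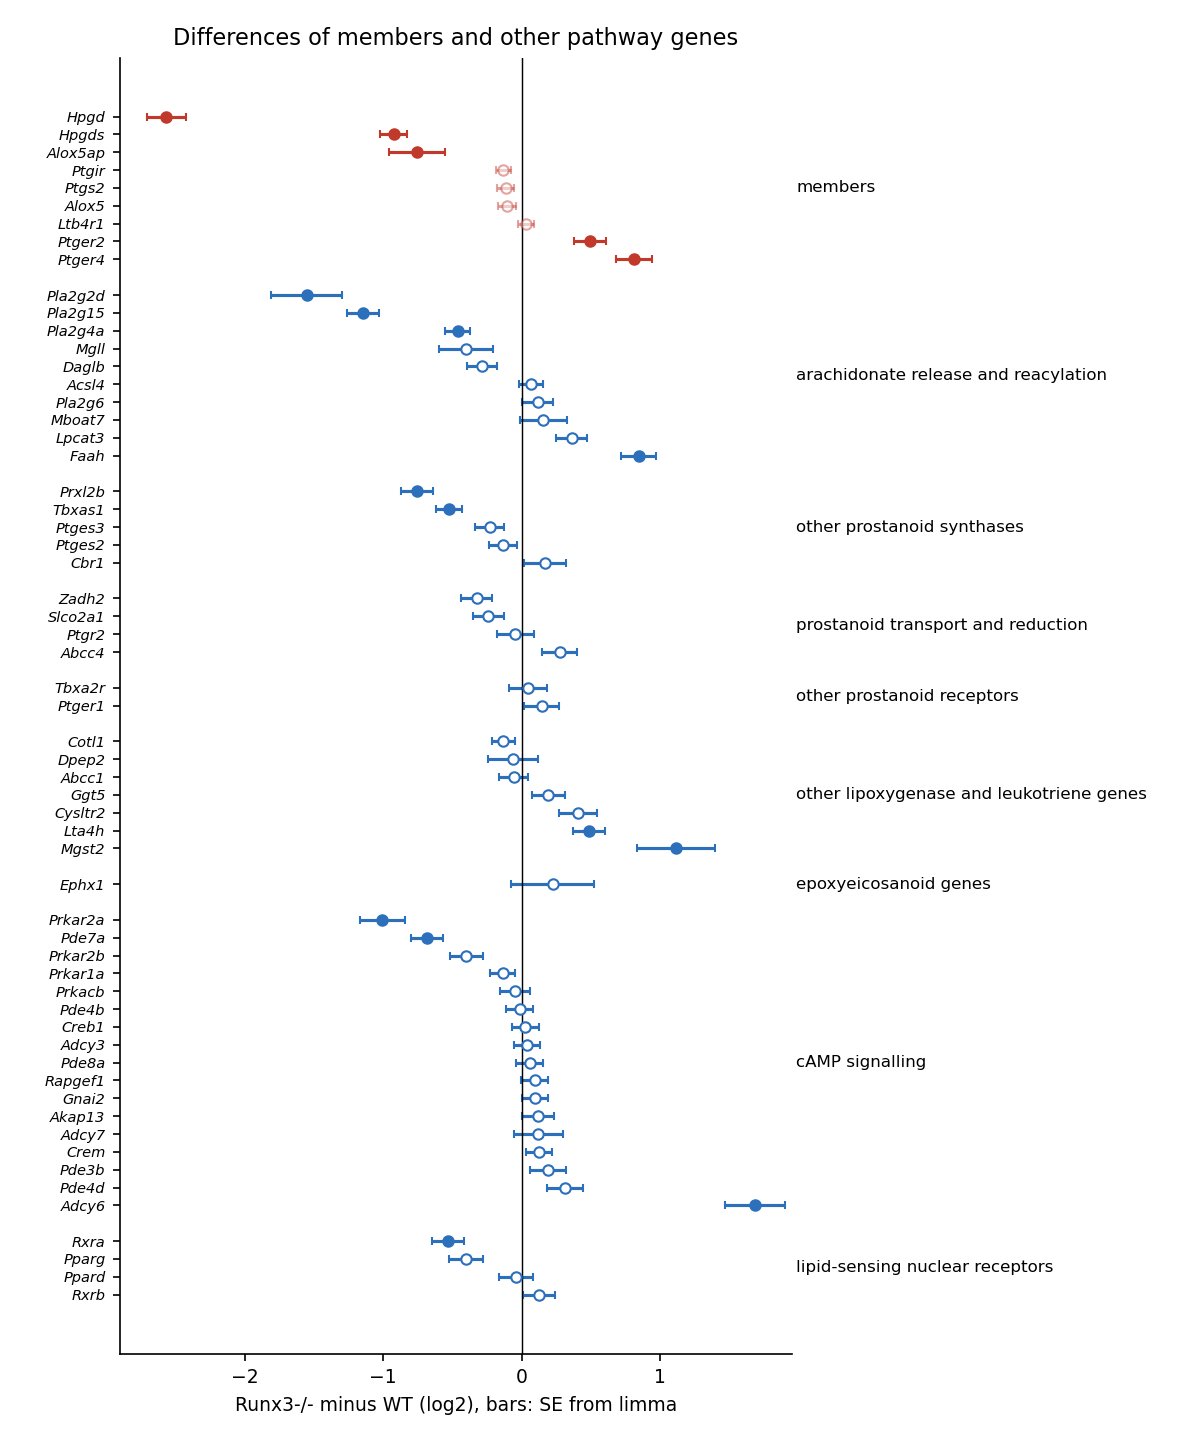
Difference between Runx3-/- and WT cells (log2, horizontal axis, bars show the SE from limma, n = 3 arrays per group) of the 9 measured eicosanoid genes (red, the 4 below the filter pale) and of the 50 other tested pathway genes by role (blue), with filled points past the limma threshold. Hpgd has the largest fall and Adcy6 the largest rise of the genes drawn, and most cAMP signalling genes lie near 0.

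Position was not used to choose the genes, and the nearest tested gene on each side of the 9 measured eicosanoid genes was therefore examined. Of these 18 neighbours 4 passed (22.2%, beside 11.6% of all genes tested). Pla2g4a, described with the phospholipases, is the gene next to Ptgs2. Fyb, an adaptor of T cell receptor signalling with 2 untested protein-coding genes between it and Ptger4, rose by 0.47 ± 0.12 (adjusted p = 0.0392). The Fyb call was lost with any single array left out. On the sides of Alox5, Marchf8, a ubiquitin ligase that lies next to it, and Rassf4, with 7 such genes between, fell, with differences of -0.64 ± 0.12 and -1.29 ± 0.34 (adjusted p = 0.0145 and 0.044). Marchf8, like Pla2g4a, reached the median in WT arrays alone (1 array) and was tested only through them. The neighbours of Hpgd (Spcs3 and Cep44) and of Hpgds (Smarcad1 and Mad2l1) did not pass, at differences between -0.31 and 0.01. The count of neighbours past the threshold was 0 without WT replicate 1, 2 without WT replicate 3, 1 without Runx3-/- replicate 2 and 2 without Runx3-/- replicate 3.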

How the data were processed

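The deposited values are on the log2 scale. Per the methods, the authors used Partek Genomics Suite for RMA (Robust Multichip Average) normalization, corrected for GC content. The submitters' processing notes name Partek and RMA as well. RMA pools the probes of a transcript and makes the distributions of the arrays alike, so that levels are relative between arrays. Software versions and the genome build behind the array annotation were not given in the sources used here. Detection calls were not used. The number of arrays limits the precision.

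Groups and replicate numbers came from the sample titles. The platform annotation paired 21789 of 35399 probe sets with 1 gene, 1621 with several and 11989 with none. A gene was represented by its brightest single-gene probe set and tested when that set reached the median of an array, taken over its probe sets, in 1 array or more (9924 genes). Differences were fitted, two-sided, with limma 3.58.1 (R 4.3.3; lmFit and eBayes, no covariates), with Benjamini-Hochberg adjustment over all genes tested at 0.05. The fit was tested on simulated data. At most 14 values were identical between any 2 arrays. Each array was treated as 1 biological repeat. Errors are SD over 3 arrays or the SE from limma.

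The members, pathway lists and marker lists were chosen with earlier results of these data known. Named were all members, in each pathway list the genes past the threshold (at most 6) and up to 2 with the lowest p of the others, the 3 brightest markers in WT of each other cell type, neighbours past the threshold, and the 5 genes nearest by pattern to the members with the largest fall and rise. Further markers, neighbours and genes below the filter were named after their values were seen. Neighbours, names and the 250 bases before transcription starts came from RefSeq tables (GRCm38.p6), where 21698 single-gene probe sets had a match by gene identifier. The alternatives were the replicate block, quantile normalization, centring, filters, no moderation of variances, array weights, the mean of probe sets, the fold and p of the methods (1.5-fold and an unadjusted p under 0.05), and each array left out.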

Additional observations from a re-analysis of the deposited data

How the results depend on the processing

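No difference of an eicosanoid gene that was past the threshold changed its sign in the settings tried, and Hpgd and Hpgds passed in all of theirs (14 and 13). Ptger4 missed the threshold only without moderation of variances, where 178 of 9924 genes passed. Of the 5 eicosanoid genes past the threshold, 3 passed with the filter at the 75th percentile of the array, which tested only 3 of them, 2 without moderation, 4 at the fold and p of the methods (all but Ptger2), and 3 to 4 with single arrays left out. The 3 left without WT replicate 1, WT replicate 2 or Runx3-/- replicate 3 lacked Ptger2 and Alox5ap. Among the other pathway genes, of which 12 passed, the filter at the 75th percentile tested 7 of those 12 and all 7 passed. The number past the threshold was 1 without moderation (Pla2g15), 8 at the methods' fold and p and 8 to 11 with single arrays left out, the latter including up to 1 gene that was not among the 12. Among the neighbours, of which 4 passed, the number was 0 without moderation and 0 to 3 with single arrays left out. Over all genes 801 passed at the methods' fold and p (491 lower, 310 higher), and 619 to 920 with single arrays left out, of which 619 without WT replicate 1, 631 without Runx3-/- replicate 2 and 621 without Runx3-/- replicate 3. Fewer arrays lower the precision of every fit. No detection call was used, so that levels near the array median may be background.

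The replicate numbers of the labels were entered as a replicate block. WT and Runx3-/- arrays of the same number deviated from their group means with correlations across genes of 0.18, 0.032 and -0.00014. These values show no steady pairing of the arrays by number, and a check on 3 arrays per group cannot exclude one. With the block, 4 of the 5 eicosanoid genes passed (all but Alox5ap). Of the 12 other pathway genes 10 passed, with Lta4h and Mgst2 lost and Pparg added (11 in all), and of the 4 neighbours 3 passed, with Rassf4 lost and Calm3 added. Over all genes 1084 passed. Not every array correlated best with its own number.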
